A study of Homo sapiens with 8 samples.

Results

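The chromosome 6 α-satellite array was described from the peaks that start at 58000000 or later and before 64000000 on chromosome 6 of build hs1, the complete human reference genome. This positional rule found 1775 of the 33553 peaks of the mitotic list and 1813 of the 32035 peaks of the asynchronous list, 3588 of 65588 in all. The peaks come from ChIRP-seq, in which biotin-labelled probes antisense to an RNA, here α-satellite RNA, are used to fish it from sheared chromatin together with the DNA it is attached to, which is then sequenced. The cells were wild-type RPE1, immortalised human cells from the retinal pigment epithelium, taken in mitosis (labelled Meta) or as an asynchronous culture (labelled Async), with no further treatment named in the labels. Each condition had 2 pull-down libraries, labelled Odd and Even, which were merged for its deposited list. Each also had 1 input and 1 Scr library, which were not analysed here.

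Human centromeres lie in α-satellite DNA, a monomer repeated head to tail. In the large arrays, blocks of several monomers form a higher-order repeat, and copies of that block follow one another with few differences over very long distances. The main array of chromosome 6 is known as D6Z1, and such arrays carry the centromeric chromatin that builds the kinetochore in mitosis. They are also transcribed at a low level, and the probes used here were designed to pair with that RNA. A probe antisense to the RNA can pair with one strand of the repeat DNA as well, so DNA held through RNA and DNA bound by the probe were not told apart. Reads from near-identical copies can map to more than 1 place, and how they were placed is not stated in the labels. The reference was built from another genome than that of RPE1, and how long the array is in RPE1 was not measured. Each condition gave 1 merged list and hence no spread between replicates. Differences between conditions were therefore not tested. The 95% intervals below are exact binomial intervals that cover counting error and treat neighbouring peaks as independent. Those of ratios of counts also treat the lists as independent of each other. Most peaks met one of the other list, so these intervals do not measure the error of a ratio between conditions.

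Both conditions covered the same part of the array to a similar extent. Peaks covered 1481919 bp in the mitotic list and 1424786 bp in the asynchronous list, a ratio of 1.04. The number of peaks went the other way, with a ratio of mitotic to asynchronous of 0.979 (0.917 to 1.05). Median peak width was 619 bp in the mitotic list, with quartiles of 426 and 970 bp, and 595 bp in the asynchronous list, with quartiles of 397 and 967 bp. The median uncovered gap between neighbouring peaks was 507 bp in the mitotic list and 530 bp in the asynchronous list. Over most of the run coverage was therefore a fine alternation of short covered and uncovered pieces rather than long solid blocks. The exception was the first stretch, up to 58599999, with median widths of 1124 bp in the mitotic and 1070 bp in the asynchronous list. In the whole window 8 mitotic peaks and 2 asynchronous peaks were wider than 5000 bp. In the rest of each list 4.23% of mitotic and 4.21% of asynchronous peaks were that wide, against 0.451% and 0.110% in the chromosome 6 window. In this window peaks made up 5.29% of the mitotic list and 5.66% of the asynchronous list, but held 3.08% and 3.0% of the covered length.

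Along the window the peaks formed a continuous run, then a gap without peaks of over 1 Mb, then a small cluster. The limits of these stretches were drawn after the positions had been seen. The first mitotic peak, 241 bp wide, started at 58260204, met no asynchronous peak and stood 25832 bp before the next. Dense coverage began at 58286277 in the mitotic list and at 58286454 in the asynchronous list, so that both lists placed this edge within 1 kb of each other. Coverage thinned out from 61100000, and the last peak of the run ended at 61413569 in the mitotic list and at 61407398 in the asynchronous list. No peak lay in either list from 61413570 to 62489978, a length of 1076409 bp. The next longest stretches without a peak in either list were that before the edge and 18959 bp from 62536621 to 62555579, inside the small cluster. Of the 60 bins of 100 kb in the window, 35 held covered bases, and each of these 35 did so in both lists.

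**Figure D1:**
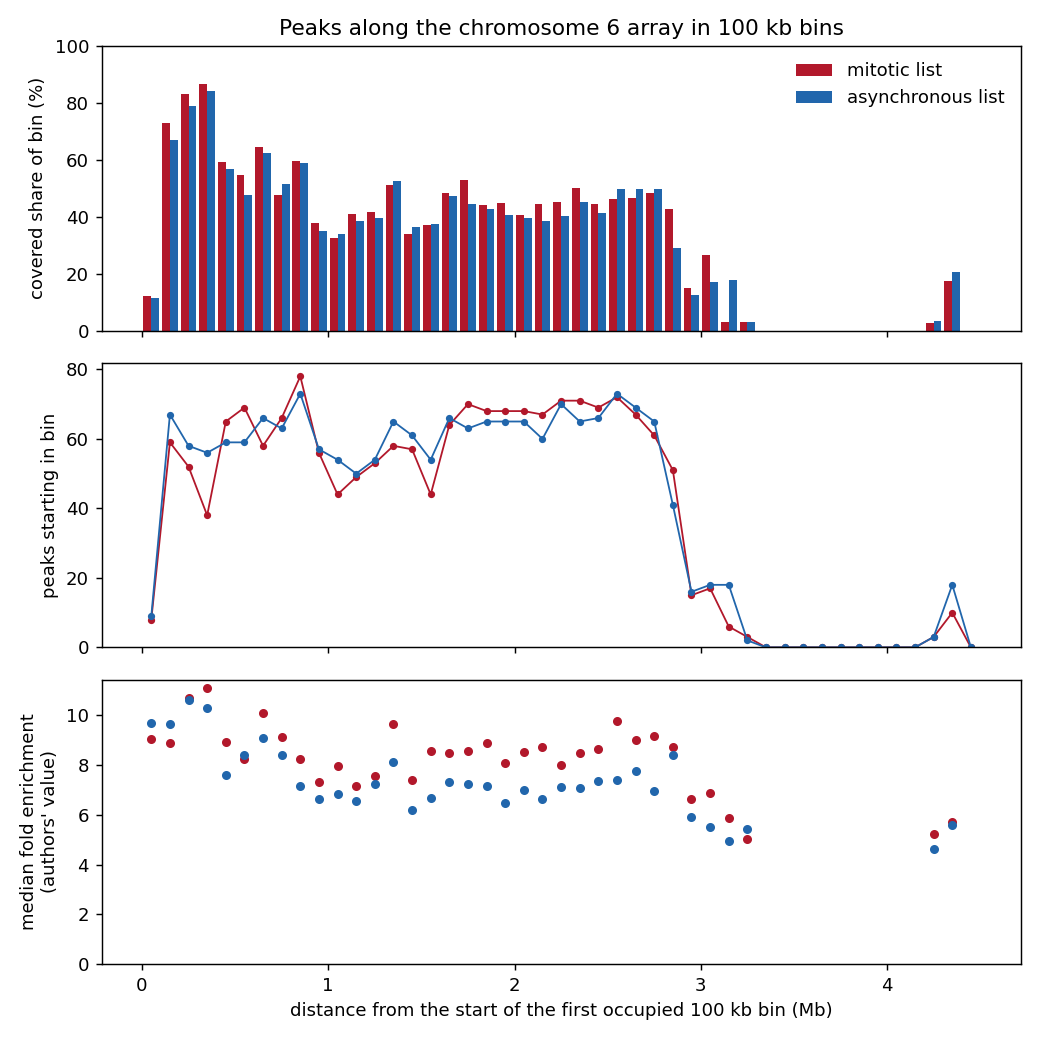
Covered share of each 100 kb bin (top, %), number of peaks that start in it (middle) and median of the authors' fold enrichment per peak, its pileup over the local background (bottom), against distance along the array in Mb, for the mitotic list (red) and the asynchronous list (blue). Coverage is highest in the fourth bin, at 86.5% in the mitotic and 84.0% in the asynchronous list, stays between 29.0% and 64.6% over the next 25 bins, and falls away before the stretch without peaks.

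The first stretch of the run was the most completely covered. The bin from 58300000 was covered over 73.0% in the mitotic and 66.9% in the asynchronous list, and the bin from 58400000 over 83.2% and 78.8%. The highest coverage of the window in both lists was in the bin from 58500000, at 86.5% in the mitotic and 84.0% in the asynchronous list. That bin held 38 mitotic and 56 asynchronous peaks, with a median width of 1594 bp in the mitotic and 1182 bp in the asynchronous list, so higher mitotic coverage came with fewer and wider peaks. Over the whole stretch up to 58599999, 157 mitotic peaks covered 254772 bp and 190 asynchronous peaks covered 241161 bp. The ratio of peaks was 0.826 (0.665 to 1.03) and that of covered length 1.06. A few peaks here were among the widest of the window. The second widest mitotic peak ran from 58585001 to 58593572, over 8572 bp that were 93.7% covered by 3 asynchronous peaks. The third ran from 58574653 to 58581348, over 6696 bp that were 94.1% covered by 4 asynchronous peaks. In the asynchronous list the widest peak of the window, 6423 bp from 58595575 to 58601997, lay at the end of this stretch and was 90.5% covered by 2 mitotic peaks. The second widest of that list, 5144 bp from 58584578 to 58589721, lay there too and was 91.8% covered by 1 mitotic peak.

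The body of the array, the 25 bins from 58600000 to 61099999, held most of the peaks, 1564 in the mitotic and 1548 in the asynchronous list. Coverage over these bins had a median of 45.2% in the mitotic list, between 32.4% and 64.6%, and of 42.7% in the asynchronous list, between 29.0% and 62.5%. The number of peaks per bin lay between 44 and 78 in the mitotic and between 41 and 73 in the asynchronous list. Both lists were high and low at largely the same places. The bin from 58800000 was the highest of the body in both, at 64.6% in the mitotic and 62.5% in the asynchronous list, and a low from 59100000 to 59499999 was also common to both, with 32.4% in the mitotic and 34.0% in the asynchronous list in the bin from 59200000. The bin from 59600000 was low in both too, at 33.8% and 36.3%. The lowest asynchronous bin of the body was another, from 61000000 at 29.0%, where the mitotic list had 42.8%. Across the 25 bins of the body the coverage of the lists correlated with a Pearson's r of 0.869. This is a description only, since the lists share a reference sequence and neighbouring bins hold copies of the same repeat. Within the body, bins with more coverage had both more and wider peaks: Spearman's rho of coverage with the number of peaks was 0.522 in the mitotic and 0.624 in the asynchronous list, and with median width 0.559 and 0.625.

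Beyond the body the run became sparse, and there the lists shared a smaller part of their covered length. From 61100000 to 61499999, 41 mitotic peaks covered 47624 bp and 54 asynchronous peaks covered 50496 bp. The shared length was 10428 bp, 21.9% of the mitotic and 20.7% of the asynchronous covered length. In the body 75% of the mitotic and 78.4% of the asynchronous covered length was shared, and in the first stretch 89.6% and 94.6%. The share of bases covered in either list that were covered in both, the Jaccard index, was 85.3% in the first stretch, 62.2% in the body and 11.9% in the sparse stretch. More coverage alone raises this index and the shared parts, and the part of coverage in the drop was not tested. Coverage was 63.7%, 46.4% and 11.9% of these stretches in the mitotic list and 60.3%, 44.4% and 12.6% in the asynchronous list. These shares are of whole bins. The first stretch includes bases before the edge and the sparse stretch bases after the last peak of the run, so coverage within the run was higher in both. In the bin from 58400000, inside the run, it was 83.2% in the mitotic and 78.8% in the asynchronous list.

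The small cluster on the far side of the gap held 13 mitotic peaks, from 62490876 to 62599270, and 21 asynchronous peaks, from 62489979 to 62591272. They covered 20112 bp in the mitotic and 23935 bp in the asynchronous list, with 7337 bp in common. The widest mitotic peak of the whole window lay in it, at 10069 bp from 62566626 to 62576694. This peak was covered over 40.5% in the asynchronous list, in 4 separate peaks. A 4369 bp asynchronous peak from 62578829 to 62583197, the third widest of that list, held no covered base of the mitotic list. The bin from 62500000 thus had similar coverage, 17.5% in the mitotic and 20.7% in the asynchronous list, in largely different places, with a Jaccard index of 15.4%. Whether this cluster belongs to the main array or to another block of satellite DNA was not tested, since no annotation of build hs1 was used.

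The comparison of conditions by bin found few bins apart. A bin was counted as higher or lower in the mitotic list where the covered length of one list exceeded that of the other by at least 25%, among bins covered over at least 10% in either list. Of 33 such bins on chromosome 6, 2 were higher and 1 was lower in the mitotic list, that is 6.06% and 3.03%, beside 11.7% higher and 6.22% lower among the 820 such bins of all chromosomes. With all peaks and these bins, the chromosome 6 shares were no larger than the genome-wide shares. The 30 other bins lay within that limit, and the median ratio over the 33 bins was 1.04, with 23 above 1 and 10 below. The 3 bins past the limit lay next to each other or nearly so, at the end of the run. In the bin from 61000000 coverage was 42.8% in the mitotic and 29.0% in the asynchronous list, a ratio of 1.48. In the bin from 61200000 it was 26.7% in the mitotic and 17.1% in the asynchronous list, a ratio of 1.56. The bin from 61300000 went the other way, with 3.12% in the mitotic and 17.8% in the asynchronous list, a ratio of 0.175. It held 6 mitotic peaks and 18 asynchronous peaks, and 245 bp were covered in both. This was the lowest coverage of the 33 bins in the mitotic list, and the lowest in the asynchronous list, 11.4%, was that of the first bin, from 58200000. The next highest ratio, 1.19, was in the bin from 59900000, where coverage was 52.9% in the mitotic and 44.5% in the asynchronous list. The next lowest were 0.844, in the bin from 62500000, and 0.923, in the bin from 58900000.

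**Figure D2:**
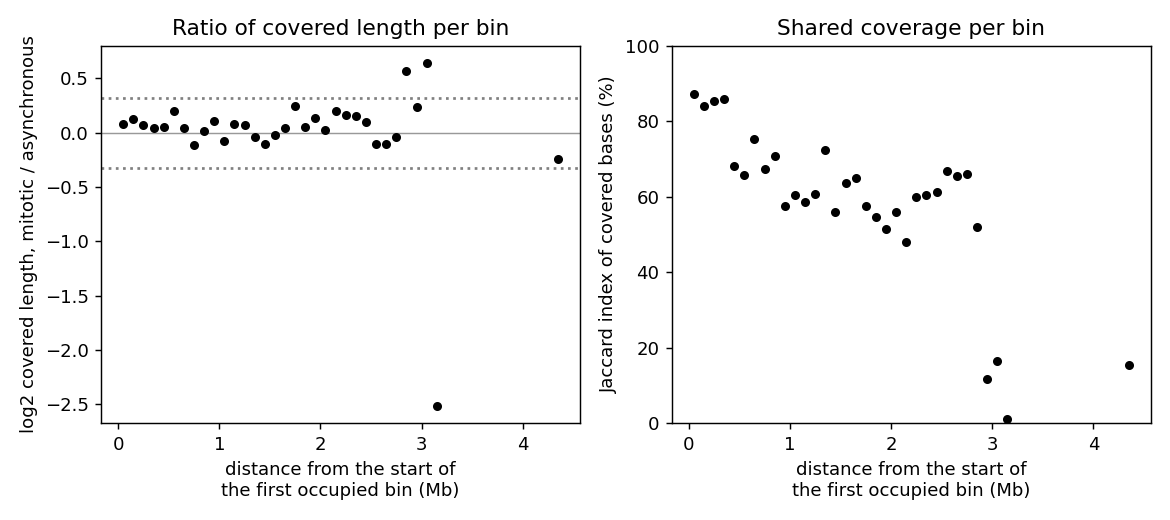
Left, log2 ratio of covered length, mitotic over asynchronous, for the 33 bins of 100 kb with at least 10% coverage in either list, with dotted lines where one list covers 25% more than the other. Right, Jaccard index of covered bases in the same bins (%). The 3 bins outside the dotted lines lie at the end of the run. The Jaccard index is lowest in 1 of them, the bin from 61300000, at 1.18%, but is 51.9% in another, the bin from 61000000. The bin from 61100000, inside the dotted lines, has 11.8%.

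Peak by peak, most of the array's peaks were found in both conditions. Of the mitotic peaks 1438 (81%, 79.1 to 82.8%) met an asynchronous peak over at least 1 bp, and of the asynchronous peaks 1482 (81.7%, 79.9 to 83.5%) met a mitotic one. In the rest of the lists the shares were 79.1% of mitotic and 81.9% of asynchronous peaks, so the array did not stand far from them. The median gap was shorter than the median peak in both lists, and the part of this dense coverage in the overlap was not tested. In 1164 cases a single mitotic peak met a single asynchronous peak and neither met another. Their edges lay close together: starts differed by at most 100 bp in 75.4% of these pairs and ends in 71.1%, with a median difference of 49 bp for starts and 51 bp for ends, on lists whose positions are resolved to about 25 bp. In these pairs the mitotic peak was wider in 633, narrower in 524 and of the same width in 7. Other peaks were split or joined between the lists. In the mitotic list 116 peaks (6.54%), with 17.3% of its covered length, met 2 or more asynchronous peaks. In the asynchronous list 90 peaks (4.96%), with 11.2% of its covered length, met 2 or more mitotic ones. Exactly 1 peak was met by 1322 mitotic and 1392 asynchronous peaks. Those of them outside the 1164 pairs met a peak that itself met 2 or more.

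Peaks that met none of the other list made up 19.0% of the mitotic and 18.3% of the asynchronous peaks of the window, and 20.9% and 18.1% in the rest of the lists. They were mostly narrower and weaker than the others. The 337 mitotic peaks that met none of the asynchronous list had a median width of 468 bp, against 645 bp for those that met exactly 1. The 331 asynchronous peaks that met no mitotic peak had a median of 419 bp, against 623 bp. The authors' fold enrichment, the ratio of a peak's pileup to the local background, was used within each list here. Only the common limit and the medians by chromosome in the next paragraph set it across lists. Median fold enrichment was 6.48 in the mitotic peaks that met none, against 9.12 in those that met exactly 1, and 5.45 against 8.0 in the asynchronous list. Among mitotic peaks with a fold enrichment below 6, 53.0% (47.0 to 59.0%) met an asynchronous peak, and the share was 71.3% from 6 to 8, 87.1% from 8 to 10 and 97.4% (95.8 to 98.6%) from 10 upwards. In the asynchronous list the same classes gave 62.2% (58.0 to 66.2%), 81.3%, 92.9% and 99.5% (98.1 to 99.9%). Stronger peaks were also wider, with a median width of 392 bp in the lowest and 922 bp in the highest mitotic class and of 420 and 947 bp in the asynchronous list. A wider peak is more likely to meet another, and the parts of width and strength were not separated. The 3 peaks of highest fold enrichment of each list were all met in the other. In the mitotic list they were 59341501 to 59342473 at 16.8, 60353778 to 60354545 at 16.1 and 58972226 to 58972973 at 15.5, covered over 99.7%, 100% and 100% in the asynchronous list. In the asynchronous list they were 59973501 to 59974022 at 15.5, 58334229 to 58335347 at 15.5 and 59120151 to 59120748 at 15.4, covered over 99.6%, 100% and 100% in the mitotic list. These 6 strongest sites were 522 to 1119 bp wide and were scattered over the first stretch and the body.

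Against the rest of each list, the chromosome 6 window stood somewhat higher in the mitotic and somewhat lower in the asynchronous list. In the mitotic list the median fold enrichment was 8.66 in the window and 7.95 in the rest of the list. In the asynchronous list it was 7.41 in the window and 7.75 in the rest. By the median over the whole chromosome, chromosome 6 ranked 10 of 23 in the mitotic and 14 of 23 in the asynchronous list. A higher median in the mitotic list was not particular to it, with 10.4 against 8.84 on chromosome 18 and 9.02 against 7.57 on chromosome 13. Only chromosomes 1, 4, 5, 11, 17 and X had a lower one. A limit of fold enrichment of at least 6 and −log10 q of at least 5, the same for both lists, kept 84.3% of the mitotic peaks of the window and 77.2% of the rest, and 68.9% of the asynchronous peaks of the window and 74.0% of the rest. In the rest of the lists this limit left 24536 of 31778 mitotic and 22362 of 30222 asynchronous peaks, so more mitotic peaks remained there too. In the window 1496 mitotic and 1250 asynchronous peaks remained. They covered 1354014 bp in the mitotic and 1148730 bp in the asynchronous list, and the ratios in the window became 1.2 for peaks and 1.18 for covered length. Of 32 bins 12 (37.5%) were then higher in the mitotic list and 0 lower, beside 19.9% higher and 6.48% lower among the bins of all chromosomes. The depth of the libraries is not known from these lists, and the part of depth in this difference was not tested. When the 50% of each list's own peaks in the window with the highest fold enrichment were taken in place of a common limit, the ratio of covered length was 1.03.

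Peak starts recurred at a fixed distance along the array. Among all pairs of starts the most frequent distance between 300 and 5000 bp was 3051 bp in both lists, with 214 pairs within a window of 51 bp in the mitotic and 177 in the asynchronous list, where the median window held 49 and 51. A distance of 3051 bp corresponds to 17.9 monomers of 170 bp. It came back at whole multiples. The highest counts near the next multiples were at 6125 and 9175 bp in both lists, with 168 and 142 pairs in the mitotic and 152 and 123 in the asynchronous list, and near the sixth at 18324 bp with 102 mitotic pairs and at 18322 bp with 87 asynchronous pairs. Divided by the multiple, these distances gave 3050 to 3062 bp per unit. Each was searched only in a limited range around a multiple of 3051 bp, so this closeness is partly set by the search. Set against the median of the windows in the unit around each multiple, the excess became smaller with distance, at 4.46 times for the first and 1.89 times for the sixth multiple in the mitotic list and 3.47 and 1.55 times in the asynchronous list. A highest count taken over a range tends to exceed the median even without a repeat. Peak ends gave 3049 bp in the mitotic and 3050 bp in the asynchronous list.

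**Figure D3:**
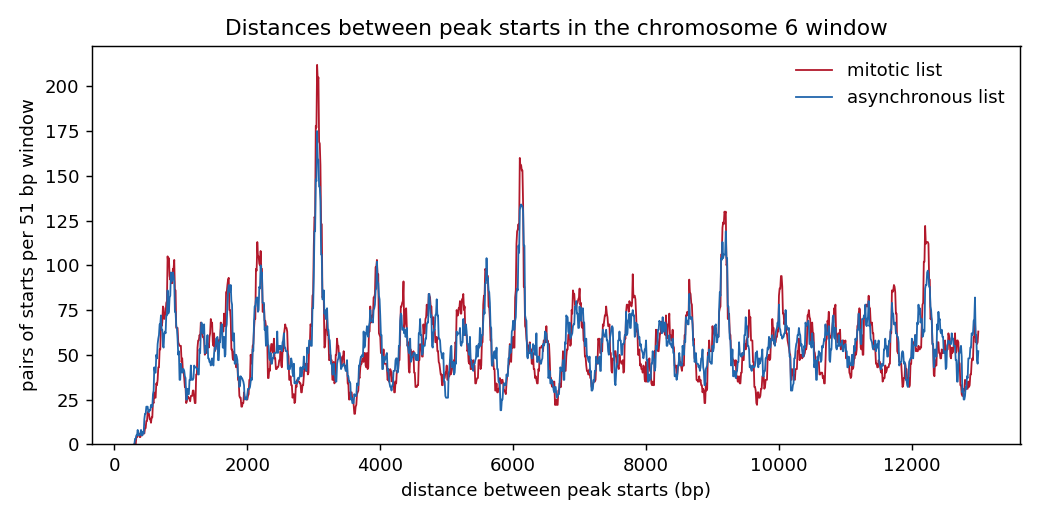
Number of pairs of peak starts in the chromosome 6 window (y axis, pairs in a 51 bp window) by the distance between them (x axis, bp), for the mitotic list (red) and the asynchronous list (blue). Both lines have their highest point at 3051 bp, with 214 mitotic and 177 asynchronous pairs, and lower ones near each further multiple.

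Smaller maxima lay between the multiples. In the mitotic list the next most frequent distances between starts were 2151 bp with 114 pairs, 802 bp with 110 and 899 bp with 105. No further meaning was read from these single distances, since each is the centre of a 51 bp window. In the asynchronous list 874 bp with 105 pairs and 2201 bp with 102 were the most frequent after 3051 bp among distances below it. Ends had somewhat fewer pairs than starts at the main distance, 195 in the mitotic and 165 in the asynchronous list. They also recurred at 1001 bp with 151 and at 2051 bp with 135 mitotic pairs, and at 1000 bp with 124 and at 2075 bp with 104 asynchronous pairs. The same distances in both lists are not independent of each other, since the reference is shared, and spacing set by the sequence or by read placement was not told apart from spacing of the bound RNA.

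The same unit was visible in covered bases. These are set by the starts and ends of the same peaks, so this is another view of the same spacing. In the body a base 3075 bp downstream of a covered base was itself covered in 56.6% of cases in the mitotic list, where 46.4% of all bases were covered, and in 53.6% in the asynchronous list, where 44.4% were. The lowest value within the first unit was at 1475 bp, with 44.8% in the mitotic and 43.2% in the asynchronous list. Smaller maxima lay at 875 bp in both lists, with 52.6% in the mitotic and 50.1% in the asynchronous list, and at 2150 bp with 49.5% in the mitotic and 2200 bp with 47.0% in the asynchronous list. The gain over the overall coverage was thus limited: a covered place in one unit was more often covered in the next, but far from always.

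**Figure D4:**
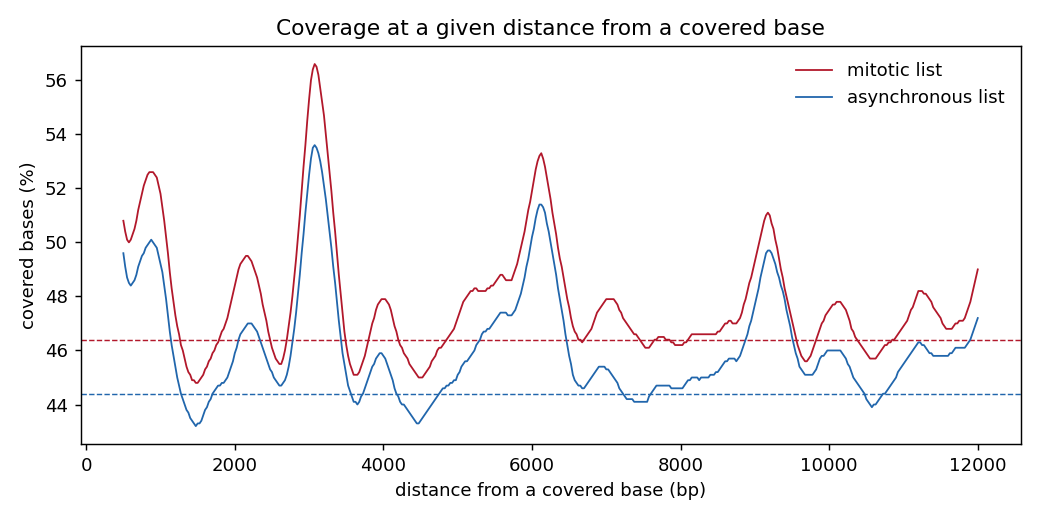
Share of bases that are covered (y axis, %, not starting at 0) at a given distance downstream of a covered base (x axis, bp) in the body of the array, for the mitotic list (red) and the asynchronous list (blue), with dashed lines at the overall coverage of 46.4% and 44.4%. Both curves peak at 3075 bp, at 56.6% and 53.6%, and again near 2 and 3 units.

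Only a part of the peaks took part in this order, and the part varied along the array. In the mitotic list 359 starts (20.2%, 18.4 to 22.2%) had another start 3051 ± 50 bp further on, and in the asynchronous list 296 (16.3%, 14.7 to 18.1%). At 4576 bp, midway between the first and the second multiple, the shares were 4.90% (3.94 to 6.01%) in the mitotic and 6.34% (5.26 to 7.56%) in the asynchronous list. Unbroken chains were short. The longest joined 8 mitotic peaks over 21299 bp, with starts from 60569627 to 60590926, and 7 asynchronous peaks over 18423 bp, from 58310528 to 58328951. Counting a partner on either side, 601 mitotic peaks (33.9%) and 514 asynchronous peaks (28.4%) belonged to a pair. These were not stronger than the others by much, with a median fold enrichment of 8.73 against 8.58 in the mitotic and 7.61 against 7.27 in the asynchronous list. They met a peak of the other list in 82.5% (79.3 to 85.5%) of mitotic and 85.2% (81.8 to 88.2%) of asynchronous cases, and peaks without a partner did so in 80.2% (77.8 to 82.5%) and 80.4% (78.1 to 82.5%).

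The share of repeated starts varied between bins, with small numbers in each. In the bin from 58300000 the share of starts with a partner was 32.2% in the mitotic and 29.9% in the asynchronous list, and in the bin from 59000000 30.8% and 31.5%. From 60000000 to 60399999 it was 28.4% to 32.4% per bin in the mitotic and 13.3% to 23.1% in the asynchronous list, where 16.3% was the share over the whole window. The highest mitotic share, 33.8%, was in the bin from 60500000, with 21.5% in the asynchronous list. The share was lowest within the body in the bin from 59200000, at 4.55% in the mitotic and 3.70% in the asynchronous list, followed in the mitotic list by the next bin at 6.12%, with 4.0% in the asynchronous list. The bin from 61000000, with 17.6% in the mitotic list, was also low in the asynchronous list, at 4.88% of 41 starts. Peaks were not missing in the bin from 59200000, with 44 mitotic and 54 asynchronous starts. Coverage was below the median of the body in that bin and the next. In the sparse stretch after 61100000, 0 of 41 mitotic and 0 of 54 asynchronous starts had a partner. Starts were also far sparser there, at 10.2 per 100 kb in the mitotic and 13.5 in the asynchronous list, where the body had 62.6 and 61.9. Fewer partners go with fewer starts, so these counts of 0 say nothing about whether the unit is kept there. The first stretch, where coverage was highest, kept the unit, with 22.3% (16 to 29.6%) in the mitotic and 20.0% (14.6 to 26.4%) in the asynchronous list and a most frequent distance of 3053 bp in the mitotic and 3049 bp in the asynchronous list.

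**Figure D5:**
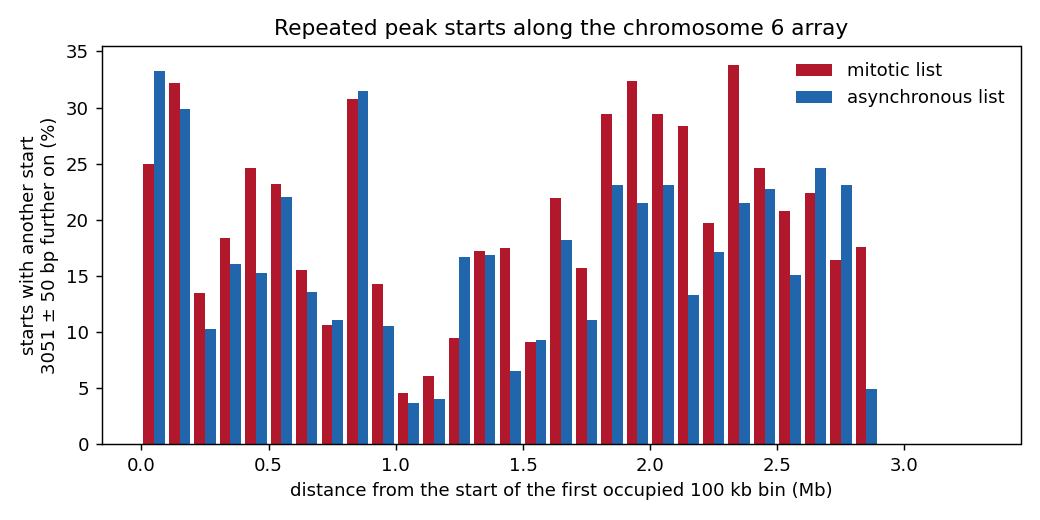
Share of peak starts in each 100 kb bin that have another start 3051 ± 50 bp further on (y axis, %), against distance along the array in Mb, for the mitotic list (red) and the asynchronous list (blue). Shares reach 33.8% in the mitotic list, drop to 4.55% in the mitotic and 3.70% in the asynchronous list in the bin from 1.0 Mb, and are 0 in the last 4 bins.

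Among the 23 chromosomes with peaks, chromosome 6 had low coverage, narrow peaks and a marked unit. Over its bins covered by at least 10% in either list, coverage was 44.7% in the mitotic and 43.0% in the asynchronous list, rank 17 of 23 from the highest in both, where the median of the other chromosomes was 59.4% and 57.0%. The median peak width of the whole chromosome ranked 20 in the mitotic and 22 in the asynchronous list. The Jaccard index over these bins, 62.4%, ranked 16. The count of pairs at the most frequent distance, divided by the median count, was 4.37 in the mitotic and 3.47 in the asynchronous list, the highest of the 23 in both. Chromosome 14 was next, at 4.0 in the mitotic list and at 3.45 in the asynchronous list. Only distances from 300 to 5000 bp were searched, so a longer unit on another chromosome would not be seen. Low medians make this quotient unsteady on chromosomes with few peaks, and chromosome 21, with 197 mitotic and 215 asynchronous peaks, reached 3.0 and 3.33. At the chromosome 6 distance of 3051 bp itself, the other chromosomes had a median quotient of 1.12 in the mitotic and 1.07 in the asynchronous list, with the highest value on chromosome 13 at 2.58 in the mitotic list and on chromosome 7 at 1.75 in the asynchronous list. That distance was chosen on chromosome 6, so these values are a description, and no difference between chromosomes was tested.

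The share of running peak numbers that are listed differed along the array. Peak names carry running numbers in genome order, and missing numbers were taken as calls that were removed. This reading was not tested, since the rule of the filter is not stated. In the window 1775 of 2759 mitotic numbers were listed (64.3%, 62.5 to 66.1%) and 1813 of 2940 asynchronous ones (61.7%, 59.9 to 63.4%). At the last peak of the window the numbers had reached 123734 in the mitotic and 63572 in the asynchronous list. The whole lists hold 33553 mitotic and 32035 asynchronous peaks. If numbering began at the start of the genome, the share listed was therefore lower over each whole list than in the window. Shares over the whole lists were not computed. In the first stretch 85.8% of the mitotic and 88.8% of the asynchronous numbers were listed, in the body 67.1% and 64.3%, in the sparse stretch 25.9% and 24.5%, and in the far cluster 21.3% and 29.6%. Few numbers fell in the long gap: 24 were missing across it in the mitotic list and 14 in the asynchronous list. The thin coverage of the sparse stretch therefore stood beside 117 mitotic and 166 asynchronous numbers that are not listed there, and their part in the low overlap of the lists in this stretch was not tested.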

How the data were processed

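Per the submitters' processing notes, reads were handled with fastp, Bowtie2 and MACS2 on build hs1, with no versions stated. The settings of peak calling and the control library are not stated there. Per the labels, Odd and Even libraries of each condition were merged for its deposited list. The lists have no header, and columns were read from their values and the MACS2 column order. The deposited pileup signal per peak, in an unstated scaling and 3 further deposited score columns of unstated meaning are not used in any result. The deposited fold enrichment (a ratio) and −log10 q per peak are the authors' own and served to describe, rank and filter peaks. Peak width in bp, also deposited by the authors, equals end minus start plus 1.

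Covered length, 100 kb bins, overlap and distances between starts were computed with numpy 2.4.6, scipy 1.17.1 and pandas 2.3.3 in Python 3.11.15. Figures were drawn with matplotlib 3.10.9. Covered length, overlap, joining of peaks and distances between starts were tested on simulated data, but the bins were not. For distances a whole multiple of the planted one would also have passed. Intervals are exact (Clopper-Pearson, and conditional binomial for ratios of counts) at 95%. Sites named are the extreme bins, the 3 widest and 3 strongest peaks per list, the widest gap and the first and last peaks. The window, lists and measures were chosen with earlier results of these data known. No sequence is printed and no gene is named, because no genome or annotation of build hs1 was used here. Starts sat on a 25 bp grid: 99.2% of mitotic and 98.2% of asynchronous starts lay at a multiple of 25 bp or up to 5 bp beyond one. Sequencing depth per library is not known. The alternatives tried were stricter peak limits, other bins, joined peaks, reciprocal overlap, and peak ends, midpoints and other windows for distances.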

Additional observations from a re-analysis of the deposited data

How the results depend on the processing

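The most frequent distance was the most stable result: under 6 alternatives (both stricter peak limits, ends, midpoints, and a narrower and a wider window) it stayed between 3049 and 3063 bp in the mitotic and between 3039 and 3073 bp in the asynchronous list. With a common limit (fold enrichment of at least 6 and −log10 q of at least 5) the ratio of peaks turned to 1.2 from below 1 and that of median width to 0.960 from above 1, the ratio of covered length became 1.18 and the Jaccard index 60.6%, and 71.5% of mitotic and 87.4% of asynchronous peaks met the other list. With the stronger 50% of each list the ratio of covered length was 1.03, that of width 1.03 and the Jaccard index 63.9%. Joining peaks across gaps of at most 200 bp gave a width ratio of 1.08. A reciprocal overlap of at least 50% left 68.5% of mitotic and 67.0% of asynchronous peaks met. Weighted by width, median fold enrichment was 9.71 in the mitotic and 8.63 in the asynchronous list. The count of bins higher in the mitotic list was 7 of 64 (10.9%) with 50 kb bins, where all chromosomes had 13.7%, 1 of 17 (5.88%) with 200 kb bins, against 10.5%, 1 of 33 (3.03%) at a ratio of 1.5, against 5.85%, 12 of 32 (37.5%) with the common limit, against 19.9%, and 3 of 29 (10.3%) with the stronger 50%, against 5.51%. Lower bins numbered 0 with 200 kb bins, the common limit and the stronger 50%, where all chromosomes had 2.34%, 6.48% and 41.6%. In the last case the limits were the median fold enrichments of the chromosome 6 window and were applied to every chromosome. The common limit removes more asynchronous than mitotic peaks, and the cause of the other changes was not tested. No paired analysis was possible because Odd and Even libraries were merged in each list, and no library could be left out for the same reason. Depth per library is unknown, so what it limits could not be computed.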

Other observations

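Outside the window chromosome 6 held 65 mitotic and 12 asynchronous peaks, on both arms. They were short, with a median width of 219 bp in the mitotic and 218 bp in the asynchronous list, and weak, with a median fold enrichment of 3.91 and 3.74. None lay close to the array: on the short arm side the nearest started at 54370245 in the mitotic and at 55305929 in the asynchronous list, and on the long arm side at 71234805 in the mitotic and at 118511704 in the asynchronous list.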
